A study of Mus musculus with 24 samples.

Results

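The comparison described here is chronic bile duct ligation (BDL) against sham surgery in control mouse liver, 28 d after the operation. It rests on 6 of the 24 arrays of the study, the 3 titled Con BDL 28d and the 3 titled Con sham 28d, taken by their titles. The tested features were 18820 gene symbols, each represented by its brightest probe set, from the 35556 probe sets of the array. Both groups were male JNK1f/f mice on a C57/BL6 background, 12 weeks old when the liver was taken, and differed in surgery: ligation of the common bile duct, or opening and immediate closing of the abdomen. JNK1f/f animals carry a Jnk1 gene flanked by recombination sites and were the study's controls, without Cre. The other arrays held JNK1-/- livers and JNK1Δhepa livers after ligation, where JNK1Δhepa carries Cre under the albumin promoter, and control livers taken 48 h after ligation or sham surgery at 8 weeks of age. Per the labels, 9 to 10 mice were operated on per group, and the 3 arrays of a group are told apart only by a replicate number. Where nothing says what a number marks, p-values measure the spread between these samples.

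Ligation of the common bile duct blocks the flow of bile into the gut, so that bile acids build up in the liver. Hepatocytes are known to answer with lower bile acid synthesis and uptake and with export back into blood, while ducts multiply, macrophages and neutrophils gather, and stellate cells lay down scar matrix. In male rodent liver a further layer of genes depends on the pulsed release of growth hormone, which acts through its receptor and the transcription factor STAT5.

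Values are log2 intensities, and each set of 3 values below is in the order of replicates 1, 2 and 3. Ligated livers were the more variable group, with a median SD over genes of 0.187, against 0.115 in sham livers, and with 360 genes of an SD above 1, against 24. Array medians lay between 5.288 and 5.324 in ligated livers and between 5.205 and 5.22 in sham livers. The hepatocyte marker Alb, encoding albumin, read 13.29, 13.30 and 13.30 in ligated livers and 13.40, 13.34 and 13.34 in sham livers. Mapk8, the gene of JNK1, read 7.67, 7.41 and 7.44 in ligated livers and 7.52, 7.52 and 7.54 in sham livers, with overlapping groups. The lowest correlation between any 2 of the 6 arrays was 0.961.

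Ligation changed 4360 of 18820 genes at an adjusted p under 0.05 in a limma fit over all arrays, which is 23.2% of those tested. Of these, 2199 rose (11.7%) and 2161 fell (11.5%), and 633 rose and 391 fell at least 2-fold (3.36% and 2.08%). The groups did not overlap for 33.1% of all genes. Because the ligated group spread more than the others, the fit was repeated on the 6 arrays alone, where the spread of these groups sets the test. That fit called 1765 genes (9.38%), of which 946 rose and 819 fell, and 1722 of them were called in both fits. For each gene list below, counts from the fit to 6 arrays are given beside those over all arrays. List counts over all arrays are to be read against 11.7% of all genes that rose and 11.5% that fell. Those from the fit to 6 arrays are to be read against its own shares, 5.03% that rose and 4.35% that fell. The median difference over all genes was -0.03, and it was -0.12 once array medians were set equal, a scaling under which 1660 genes rose and 3693 fell. The 3 ligated livers did not share their extremes evenly: of the genes that fell, 58.1% were lowest in replicate 1, 11.8% in replicate 2 and 30.1% in replicate 3, and of those that rose, 41.5%, 17% and 41.6% were highest in replicates 1, 2 and 3.

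Hsd3b5, a hydroxysteroid dehydrogenase of male mouse liver, read 4.02, 3.17 and 3.39 in ligated livers, against 11.99, 12.04 and 12.05 in sham livers, a 363-fold difference (log2 -8.50, SE 0.86, adjusted p = 1.22e-06). Every ligated value lay at least 7 units below every sham value. Sult2a8, a bile acid sulfotransferase, read 4.60, 4.43 and 4.13 in ligated livers and 11.64, 11.61 and 11.47 in sham livers (145-fold lower, log2 -7.18, SE 0.54). Serpina4-ps1, a serpin pseudogene, read 3.78, 4.12 and 3.33 in ligated livers, against 11.13, 11.41 and 11.48 in sham livers (193-fold lower). In each of these genes the 3 ligated livers lay close together and far below every sham liver.

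Other genes with large falls were uneven between ligated livers. Car3, a carbonic anhydrase of hepatocytes and fat cells, read 6.17, 8.00 and 9.06 in ligated livers and 13.08, 12.97 and 12.97 in sham livers (38.4-fold lower, log2 -5.26, SE 0.69, adjusted p = 2.08e-05). Keg1, which belongs to the glycine acyltransferase-like genes, read 5.01, 7.63 and 7.97 in ligated livers against 11.60, 11.79 and 11.77 in sham livers (28.8-fold lower). Replicate 1 was the lowest ligated liver for both, and no ligated value came near a sham value. The carboxylesterase genes Ces1f and Ces3a were likewise lowest in ligated replicate 1, at 5.61 and 6.82, beside 7.39 to 9.05 in the other ligated livers, against 11.64 to 12.61 in sham livers. Cyp4a12a, a fatty acid hydroxylase of male liver, read 10.30, 9.36 and 6.04 in ligated livers and 12.55, 12.49 and 12.21 in sham livers, here with replicate 3 the lowest. Its call was lost in the fit to 6 arrays, at adjusted p = 0.0588 (7.28e-05 to 0.0588 over its alternatives). Mup3, Mup6 and Mup21, which encode major urinary proteins, were 37.8-, 45.3- and 41.6-fold lower after ligation. Genes of the Mup, Ces and Cyp families have near-identical copies, so a probe set may report several members at once and their values are uncertain as values of 1 gene.

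**Figure D1:**
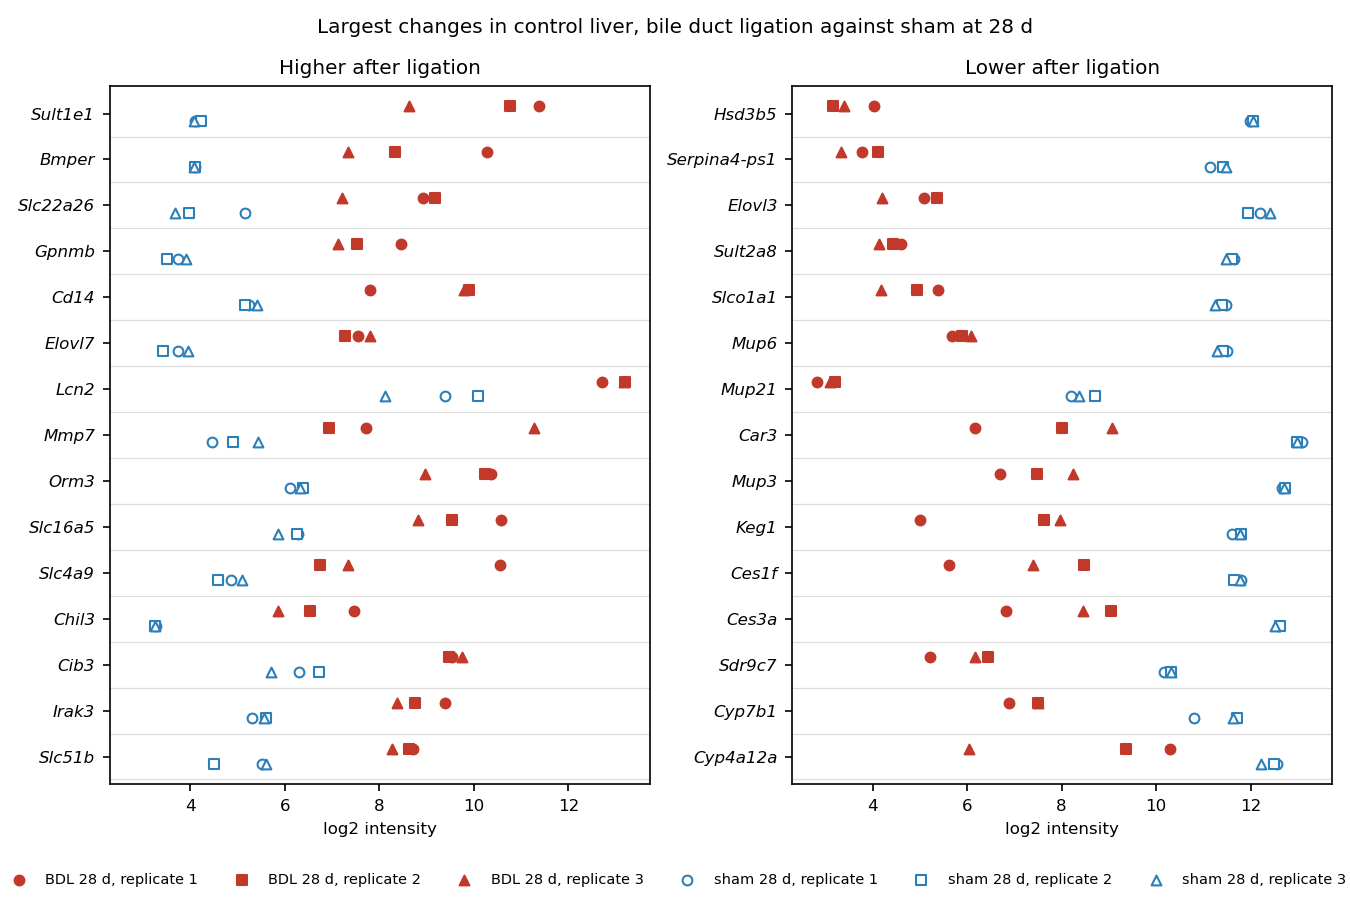
Log2 intensity (x axis) on each array for the 15 genes with the largest rise (left) and the 15 with the largest fall (right), ligated livers as filled red symbols and sham livers as open blue symbols, with the symbol shape marking the replicate. Genes with any overlap between ligated and sham values were excluded when these were picked. That red and blue symbols stand apart is therefore no result. Mmp7, Slc4a9 and Cyp4a12a have the widest spread among ligated livers.

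Promoter sequence, 250 bases before each start site in RefSeq on GRCm38.p6, was available for 14749 of the genes, and is shown for genes at both ends of the comparison. Mup3 and Mup21 are given because they fell together and share most of their letters: set against each other with a shift of 6 bases, 205 of 244 positions are identical (84%). Keg1 and Slc51b, a fall and a rise, are given because they hold matches to the motifs searched, and Hsd3b5 because it fell furthest of the named genes. Sequences run 5′ to 3′ along the gene's strand, in lower case, with capitals for matches to TTCNNNGAA (the form bound by STAT5) or TGANTCA (the form bound by AP-1). Both motifs read the same on either strand, and they do not overlap here.
Hsd3b5 (chr3:98645535-98645784, minus strand): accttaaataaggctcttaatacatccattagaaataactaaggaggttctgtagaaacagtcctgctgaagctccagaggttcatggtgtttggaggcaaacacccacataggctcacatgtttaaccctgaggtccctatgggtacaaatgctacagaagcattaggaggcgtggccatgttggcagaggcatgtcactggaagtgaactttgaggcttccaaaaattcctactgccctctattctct
Mup3 (chr4:62087318-62087567, minus strand): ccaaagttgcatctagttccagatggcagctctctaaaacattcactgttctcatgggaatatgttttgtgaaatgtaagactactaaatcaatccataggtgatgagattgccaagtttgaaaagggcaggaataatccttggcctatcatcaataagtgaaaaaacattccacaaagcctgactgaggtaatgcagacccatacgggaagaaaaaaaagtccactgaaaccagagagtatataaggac
Mup21 (chr4:62150842-62151091, minus strand): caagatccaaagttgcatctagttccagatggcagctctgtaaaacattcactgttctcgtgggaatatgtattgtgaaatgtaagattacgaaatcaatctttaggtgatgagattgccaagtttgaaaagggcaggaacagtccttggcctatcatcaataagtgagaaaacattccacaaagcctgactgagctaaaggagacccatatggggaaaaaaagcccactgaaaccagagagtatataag
Keg1 (chr19:12695540-12695789, plus strand): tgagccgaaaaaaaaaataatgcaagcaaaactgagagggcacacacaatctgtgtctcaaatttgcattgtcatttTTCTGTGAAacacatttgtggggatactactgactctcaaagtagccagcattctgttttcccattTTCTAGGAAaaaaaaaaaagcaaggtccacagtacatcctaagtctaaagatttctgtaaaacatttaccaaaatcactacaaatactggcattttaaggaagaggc
Slc51b (chr9:65422774-65423023, minus strand): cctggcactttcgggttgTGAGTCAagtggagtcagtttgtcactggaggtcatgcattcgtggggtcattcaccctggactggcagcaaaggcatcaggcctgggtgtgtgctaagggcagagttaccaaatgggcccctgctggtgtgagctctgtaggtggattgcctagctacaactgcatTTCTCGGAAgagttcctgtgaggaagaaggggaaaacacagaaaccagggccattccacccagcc
The Keg1 window holds 2 matches to TTCNNNGAA, whose first bases lie at positions -173 and -107 from the start, and the Slc51b window holds 1 match to each motif, at -65 and -232. TTCNNNGAA occurs in 6.27% of the windows of genes that fell at least 2-fold and in 6.93% of those that rose at least 2-fold, against 6.6% of the windows of all genes tested. TGANTCA occurs in 7.05% of the windows of genes that fell at least 2-fold and in 9.63% of those that rose at least 2-fold, against 5.9% of all windows. A match is a match of letters in this window.

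Among genes that set male apart from female mouse liver, male-biased genes fell and part of the female-biased genes rose. Each of the 19 measured male-biased genes fell, and 12 did in the fit to 6 arrays. Their median difference was -2.53, beside -0.03 over all genes. Averaged over the list, the difference from the sham mean was -3.43, -3.08 and -3.46 in the 3 ligated livers, with the 3 ligated livers within 0.4 of each other. Cyp2u1, a fatty acid hydroxylase, read 6.79, 6.10 and 6.05 in ligated livers and 9.16, 8.88 and 9.21 in sham livers (log2 -2.77, SE 0.21, adjusted p = 4.52e-08). Of 15 measured female-biased genes 6 rose, 5 of them in the fit to 6 arrays. Slc22a26, an organic anion transporter, read 8.93, 9.19 and 7.21 in ligated livers against 5.17, 3.97 and 3.68 in sham livers (18.0-fold higher). Slc22a27, of the same family, read 6.60, 7.33 and 7.26 against 3.60, 4.09 and 4.05 in sham livers (log2 3.15, SE 0.29). The list's median was 1.0, but 0.18 without ligated replicate 1, 0.46 without ligated replicate 2, and 0.31 without sham replicate 2.

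The growth hormone list included falls of the receptor Ghr and the target Igfals. The list averaged -0.01, -0.11 and -0.11 from the sham mean in ligated replicates 1, 2 and 3. Ghr, the growth hormone receptor, read 10.19, 10.83 and 10.70 in ligated livers and 11.89, 11.90 and 11.84 in sham livers (log2 -1.30, SE 0.13, adjusted p = 1.52e-06), with no overlap. Igfals, which stabilises circulating IGF1 and is a target of STAT5, read 6.79, 7.86 and 6.92 against 9.24, 9.43 and 9.42 in sham livers (log2 -2.18, SE 0.27). Igf1 itself did not pass, at 11.69, 11.72 and 11.36 in ligated livers and 11.69, 11.83 and 11.80 in sham livers (adjusted p = 0.147). Stat5a and Stat5b fell by 0.53 and 0.51 on the log2 scale, and both calls were lost in the fit to 6 arrays, at adjusted p = 0.075 and 0.0815 (alternatives from 0.00105 and from 0.000921). Of 22 measured genes of the list 6 fell and 2 rose, at a median of -0.11, and 3 fell in the fit to 6 arrays, which called 0 higher (3 at an unadjusted p under 0.05). Without ligated replicate 1 or any 1 sham replicate 1 rose, and the median was -0.20 without ligated replicate 2.

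Most genes of bile acid synthesis fell, and Cyp7a1 did not pass. Of 17 measured genes 13 fell, at a median of -0.59, and 8 in the fit to 6 arrays. Cyp7b1, the oxysterol hydroxylase of the acidic pathway, read 6.89, 7.49 and 7.50 in ligated livers and 10.81, 11.71 and 11.63 in sham livers (17.0-fold lower). Hsd3b7, which acts on both pathways after the hydroxylases, read 8.97, 9.85 and 9.73 against 11.21, 10.97 and 11.11 (log2 -1.58, SE 0.19, adjusted p = 6.01e-06). Scp2, whose product includes the thiolase that shortens the side chain, read 11.37, 11.41 and 11.21 in ligated livers against 12.42, 12.40 and 12.34 in sham livers (log2 -1.06, SE 0.11). Cyp7a1, the rate-limiting enzyme of the classical pathway, read 8.55, 10.91 and 10.03 in ligated livers and 10.73, 7.89 and 10.70 in sham livers, with overlapping groups and sham replicate 2 the lowest of all 6 (log2 0.06, SE 1.15, adjusted p = 0.98). Its sign was turned without that array (-0.88), without ligated replicate 2 (-0.48) or 3 (-0.04), and by centring (-0.04). Cyp8b1, which sets the share of cholic acid, read 8.57, 9.03 and 7.23 against 11.29, 11.02 and 11 (log2 -2.83, SE 0.95, adjusted p = 0.0372). The Cyp8b1 call was lost when ligated replicate 1 or 3 or any sham replicate was left out (0.0578 to 0.133), and without the 4 arrays whose Mapk8 goes against their label (0.0633). In the fit to 6 arrays it held at adjusted p = 0.0111, within a range of 0.0111 to 0.133 over its alternatives.

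Among transporters, uptake carriers mostly fell and exporters mostly rose or did not pass. Of 7 measured uptake transporters 5 fell and 1 rose (median -0.95), 3 and 1 in the fit to 6 arrays. Slc22a7, an organic anion carrier of the sinusoidal membrane, read 4.76, 5.75 and 4.97 in ligated livers and 8.36, 8.18 and 8.61 in sham livers (log2 -3.22, SE 0.34, adjusted p = 1.66e-06). Slco1a4, an uptake carrier of the same membrane, went the other way, at 11.64, 10.78 and 10.50 against 9.56, 9.25 and 9.45 (log2 1.56, SE 0.20). Slc10a1, the sodium-dependent carrier of conjugated bile acids, fell by 0.49 (SE 0.09), with the call lost in the fit to 6 arrays (adjusted p = 0.0608; from 0.000115 over its alternatives). Of 17 genes of export and canalicular transport 7 rose and 2 fell (median 0.33, and 0.21 without ligated replicate 1), 6 and 2 in the fit to 6 arrays, and 4 fell after centring. Slc51b, the beta subunit of the basolateral bile acid exporter, read 8.72, 8.63 and 8.28 in ligated livers, against 5.53, 4.50 and 5.61 in sham livers (10.0-fold higher, adjusted p = 0.00181). Abcb1a, a multidrug pump, read 8.52, 7.85 and 8.49 against 5.35, 5.04 and 5.79 (log2 2.90, SE 0.41). Abcc1 and Abcc5, pumps of the basolateral side, rose by 1.02 and 0.71, while Abcg2, a canalicular pump, read 7.88, 8.08 and 8.11 against 9.00, 8.59 and 8.94 (log2 -0.82, SE 0.14). Abcb11, the canalicular bile salt pump, read 10.59, 11.20 and 11.08 against 11.68, 11.45 and 11.69, without overlap, and did not pass (adjusted p = 0.0822).

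Among nuclear receptors the few called members went in both directions. Of 24 measured, 5 fell and 2 rose, beside 11.5% and 11.7% of all genes that did so. Their median was -0.10, and in the fit to 6 arrays 4 fell and 1 rose. Ppara, which drives fatty acid oxidation, read 9.39, 9.46 and 9.53 in ligated livers against 10.30, 10.23 and 10.08 in sham livers (log2 -0.75, SE 0.11, adjusted p = 9.97e-05). Pparg, its relative in fat cells and macrophages, read 9.39, 9.30 and 9.19 against 8.34, 8.19 and 8.05 (log2 1.10, SE 0.13), so that both pairs of groups stood apart in opposite directions. Nr1h4, the bile acid receptor, read 8.93, 9.36 and 9.20 against 9.71, 9.72 and 9.68 and did not pass over all arrays (adjusted p = 0.061), though it did in the fit to 6 arrays (0.0491; 0.0213 to 0.193 over its alternatives). Nr0b2, the repressor that this receptor induces, read 8.84, 8.79 and 8.43 against 9.11, 9.39 and 8.05, with overlapping groups. Without ligated replicate 3, 4 receptors rose, and after centring 8 fell. The median was -0.20 without ligated replicate 1, 0.00 without ligated replicate 3 and -0.03 without sham replicate 1.

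**Figure D2:**
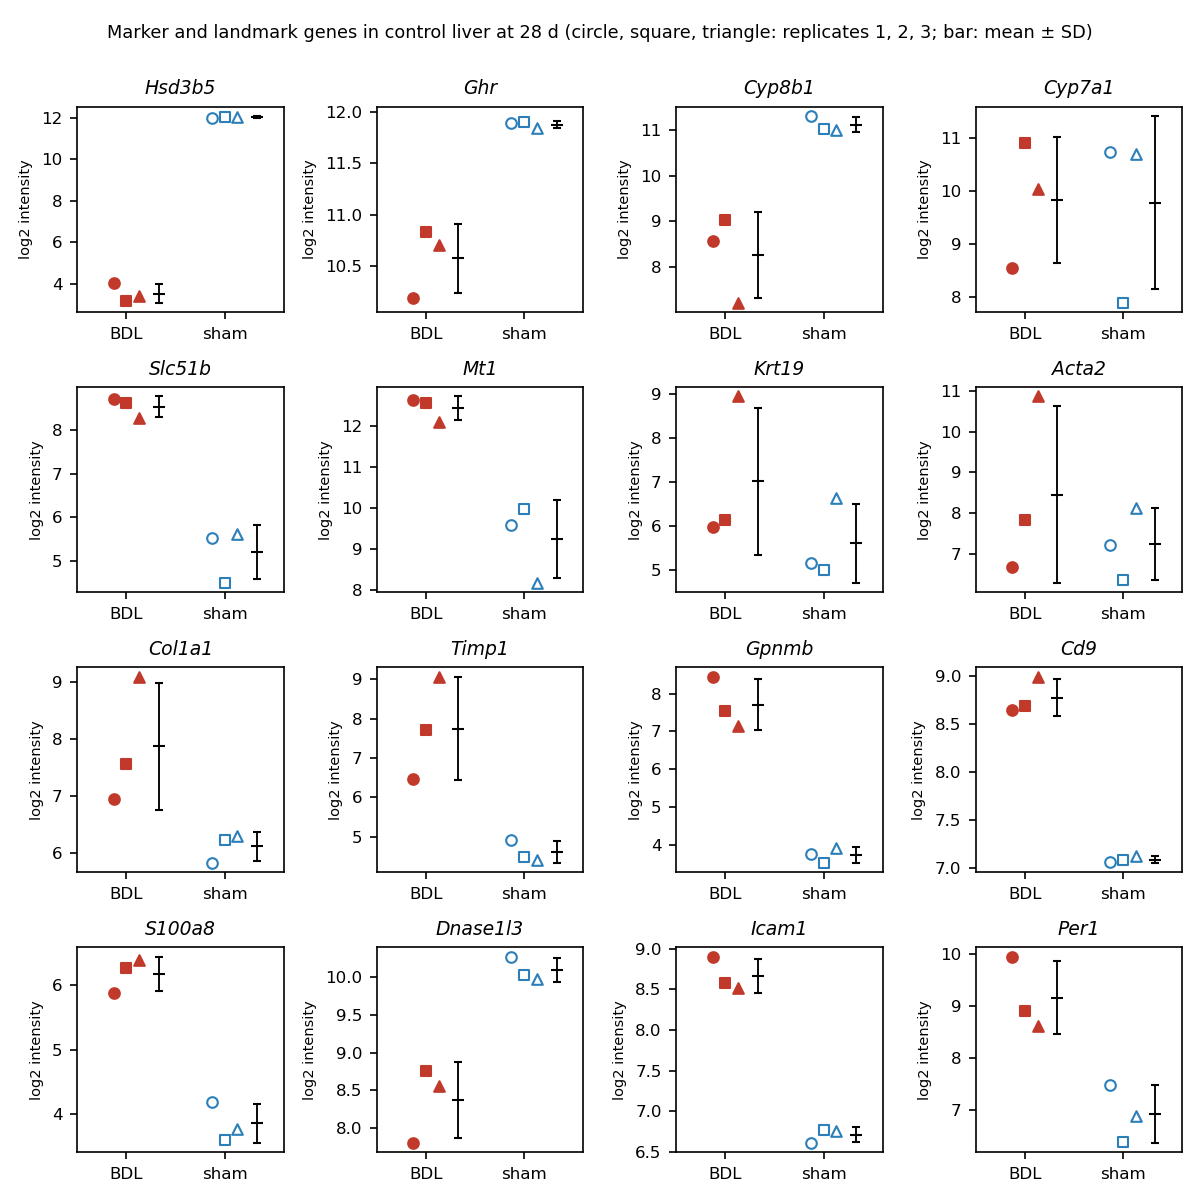
Log2 intensity (y axis, a separate scale in each panel) of 16 marker genes in ligated (BDL, left) and sham livers (right), with circle, square and triangle for replicates 1, 2 and 3 and the mean ± SD beside them. Ghr, Cd9, S100a8 and Icam1 separate the groups with little spread, and Slc51b separates them with a wider range in sham livers (4.50 to 5.61). In contrast, ligated replicate 3 alone is high for Krt19 (8.95) and Acta2 (10.87), and Cyp7a1 overlaps.

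Genes of both ends of the liver lobule included members that fell. Of 19 measured pericentral genes 11 fell and 2 rose (median -0.56), 7 and 1 in the fit to 6 arrays, and 1 rose without ligated replicate 2 or 3 or any 1 sham replicate. Glul, glutamine synthetase, read 10.44, 11.36 and 10.86 in ligated livers and 12.08, 11.95 and 11.92 in sham livers (log2 -1.10, SE 0.26, adjusted p = 0.00454). Rhbg, an ammonium transporter of the same cells, read 5.08, 6.37 and 6.16 against 8.02, 8.04 and 7.99 (log2 -2.14, SE 0.32). Lgr5, a receptor that amplifies WNT signals, read 5.77, 6.89 and 6.44 against 8.78, 7.62 and 8.26 (log2 -1.85, SE 0.30), and Tbx3, a WNT-dependent transcription factor of pericentral cells, fell by 1.49 (SE 0.22). In all of these ligated replicate 1 was the lowest liver. Of 16 periportal and amino acid genes 6 fell and 1 rose (median -0.18), 3 fell in the fit to 6 arrays, and 4 rose without ligated replicate 3. Without ligated replicate 1, 0 rose and the median was -0.37. Cyp2f2, a periportal cytochrome, read 11.71, 12.35 and 11.49 against 13.06, 13.07 and 13.02 (log2 -1.20, SE 0.21), and Uroc1, of histidine breakdown, fell by 0.76 (SE 0.15). Cps1, the entry enzyme of the urea cycle, read 13.13, 12.95 and 12.84 in ligated livers and 12.95, 12.90 and 12.91 in sham livers and did not pass (adjusted p = 0.621). Whether pericentral and periportal genes differed from each other in their response was not tested.

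Enzymes of drug metabolism followed. Of 25 measured cytochromes P450 of xenobiotic metabolism 12 fell and 3 rose (median -0.55), 9 and 3 in the fit to 6 arrays, and 7 fell without sham replicate 1. Cyp2c29, inducible by phenobarbital, read 11.38, 11.42 and 10.98 in ligated livers against 12.57, 12.40 and 12.43 in sham livers (log2 -1.21, SE 0.17, adjusted p = 4.38e-05), and Cyp4f14, a leukotriene hydroxylase, fell by 2.62 (SE 0.32). Cyp2c39 rose by 1.53 (SE 0.25). Among 29 conjugating enzymes 15 fell and 3 rose (median -0.54), 10 and 3 in the fit to 6 arrays. Sult1e1, estrogen sulfotransferase, made the largest rise of the named genes, at 11.37, 10.76 and 8.62 in ligated livers against 4.11, 4.23 and 4.09 in sham livers. Sult5a1 of the same family read 4.82, 4.01 and 4.51 against 7.65, 7.93 and 8.26 (log2 -3.50, SE 0.23, adjusted p = 9.57e-09). Ugt3a1, a sugar transferase, fell by 3.09 (SE 0.31). Cyp2c and Ugt genes are multigene families with near-identical copies, and their values are uncertain for that reason.

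Hepatocyte identity genes fell in part, transcription factors among them. Of 24 measured identity genes 12 fell, at a median of -0.19, and 8 in the fit to 6 arrays; 1 rose without ligated replicate 3. Cebpa, which keeps hepatocytes differentiated, read 9.29, 9.56 and 9.42 in ligated livers against 10.42, 10.48 and 10.56 in sham livers (log2 -1.07, SE 0.13, adjusted p = 9.8e-06). Foxa1 and Foxa2, pioneer factors of liver genes, read 7.59 to 7.93 and 6.78 to 6.87 in ligated livers, against 8.69 to 9.23 and 7.49 to 7.98 in sham livers (log2 -1.15, SE 0.15, and -0.97, SE 0.13). Hnf4a, a central hepatocyte regulator, read 12.13, 11.91 and 11.68 against 11.86, 11.91 and 11.77 and did not pass, with overlapping groups. Ttr, the carrier of thyroid hormone, fell by 0.45 (SE 0.07). In bulk liver, fewer hepatocytes and less RNA per hepatocyte cannot be told apart, here or for any cell type below.

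Many genes of clotting and complement proteins, which hepatocytes make, fell in the fit over all arrays. Of 29 measured genes 20 fell and 1 rose (median -0.41), but 6 fell in the fit to 6 arrays (17 at an unadjusted p under 0.05). C8b, of the membrane attack complex, read 10.85, 11.12 and 11.01 in ligated livers and 12.32, 12.40 and 12.25 in sham livers (log2 -1.33, SE 0.10, adjusted p = 4.52e-08). Proc, the anticoagulant protein C, read 10.69, 10.92 and 10.83 against 11.44, 11.45 and 11.43 (log2 -0.63, SE 0.07). F11, a clotting factor, and Mbl2, a lectin that starts complement, fell by 1.21 (SE 0.17) and 1.33 (SE 0.20). The list lay lower in ligated replicate 1 (-0.82 from the sham mean) than in replicates 2 and 3 (-0.37 and -0.41).

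Of 26 acute phase genes 12 rose and 2 fell (median 0.45), 9 and 0 in the fit to 6 arrays (2 lower at an unadjusted p under 0.05), and 1 fell without ligated replicate 1 or sham replicate 1 or 3. Orm2 and Orm3, which encode orosomucoids, rose by 2.63 (SE 0.34) and 3.58 (SE 0.40): Orm3 read 10.36, 10.24 and 8.96 in ligated livers against 6.11, 6.39 and 6.32 in sham livers. Cd14, the coreceptor for endotoxin, read 7.81, 9.90 and 9.79 against 5.24, 5.17 and 5.42 (14.8-fold higher, adjusted p = 8.73e-05). Mt1 and Mt2, metallothioneins that bind zinc and copper, read 12.09 to 12.62 and 12.85 to 13.05 in ligated livers, against 8.17 to 9.97 and 8.87 to 11.63 in sham livers (log2 3.17, SE 0.38, and 2.69, SE 0.39). Sham replicate 3 was the lowest sham liver for both. Slc30a10, a manganese exporter, fell by 1.99 (SE 0.25), and Id1, a target of bone morphogenetic proteins, rose by 2.12 (SE 0.32). The metal and iron list had 8 of 20 genes that rose and 1 that fell (median 0.16, and 0.30 without sham replicate 2) and 5 in the fit to 6 arrays, with 5 without ligated replicate 1 and 4 without sham replicate 1.

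**Figure D3:**
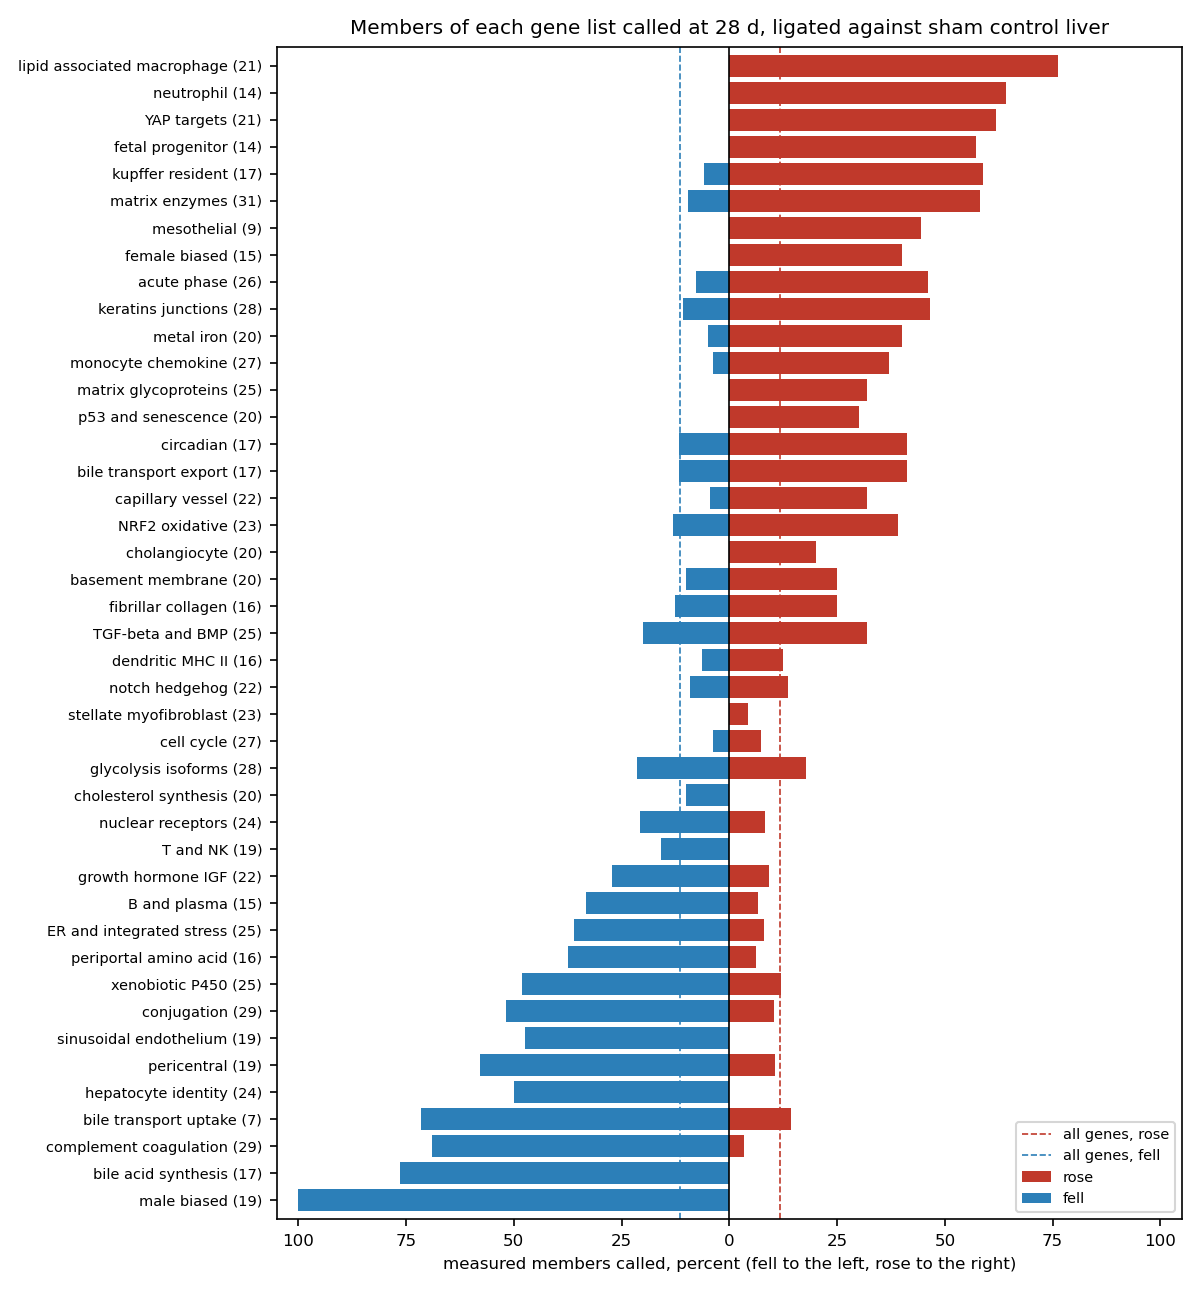
Percent of the measured members of each gene list that rose (red, to the right) or fell (blue, to the left) at 28 d, ligated against sham, with the number measured in parentheses and dashed lines at the share of all genes, 11.7% that rose and 11.5% that fell. Male-biased genes stand at the bottom, with 19 of 19 that fell, and lipid-associated macrophage genes at the top, with 16 of 21 that rose.

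Some of the largest rises belonged to transport, to innate immunity and to secreted regulators. Bmper, whose secreted product binds and tunes bone morphogenetic proteins, read 10.27, 8.33 and 7.34 in ligated livers against 4.11, 4.11 and 4.09 in sham livers (23.3-fold higher, adjusted p = 4.47e-06). Slc16a5, a carrier of the monocarboxylate family, read 10.57, 9.53 and 8.81 against 6.29, 6.26 and 5.85 (11.3-fold higher, adjusted p = 2.56e-07). Irak3, which restrains signals of Toll-like receptors, read 9.39, 8.75 and 8.37 against 5.31, 5.60 and 5.57 (10.2-fold higher). For these 3 genes replicate 1 was the highest and replicate 3 the lowest ligated liver. Elovl7, a fatty acid elongase, and Cib3, of a family of calcium-binding proteins, were even across ligated livers, at 7.27 to 7.80 and 9.47 to 9.76, against 3.42 to 3.95 and 5.71 to 6.72 in sham livers (14.3- and 10.2-fold higher). Slc4a9, an anion exchanger, read 10.56, 6.74 and 7.34 against 4.86, 4.58 and 5.10, and its call was lost in the fit to 6 arrays (adjusted p = 0.0682, from 5.89e-05 over its alternatives). Mmp7, a metalloproteinase of injured epithelia, read 7.73, 6.94 and 11.27 against 4.47, 4.91 and 5.43, with replicate 3 far above the rest, and its call was lost likewise (adjusted p = 0.0737, from 0.000273 over its alternatives).

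Of 21 measured genes of lipid-associated macrophages 16 rose, at a median of 1.41, and 14 in the fit to 6 arrays. The list averaged 0.93, 1.27 and 1.47 above sham in ligated replicates 1, 2 and 3. Cd9, a tetraspanin, read 8.64, 8.68 and 8.99 in ligated livers against 7.06, 7.08 and 7.13 in sham livers (log2 1.68, SE 0.11, adjusted p = 9.57e-09). Lgals3, galectin-3, read 8.31, 8.48 and 8.61 against 6.41, 6.57 and 6.43 (log2 2.0, SE 0.14), and Ctss, a lysosomal protease, 9.05, 9.03 and 9.18 against 7.49, 7.73 and 7.66 (log2 1.46, SE 0.11). Gpnmb, a glycoprotein of lipid-laden macrophages, read 8.45, 7.54 and 7.13 against 3.75, 3.52 and 3.92. Of 17 genes of resident Kupffer cells 10 rose and 1 fell (median 0.84), 6 and 1 in the fit to 6 arrays. The members called included the complement genes C1qa, C1qb and C1qc, which rose by 0.89, 1.01 and 1.17, and Vsig4, a complement receptor, at 11.07, 10.85 and 11.06 against 10.08, 10.31 and 9.81. The defining Kupffer marker Clec4f did not pass, at 9.30, 9.87 and 9.83 in ligated livers and 9.73, 10.03 and 9.78 in sham livers, nor did the general macrophage marker Adgre1, at 7.11, 8.27 and 8.62 against 7.98, 8.13 and 7.61. Both sets of groups overlapped.

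Many chemokine and neutrophil genes rose, while 1 lymphocyte gene did. Of 27 monocyte and chemokine genes 10 rose and 1 fell (median 0.90), 9 and 0 in the fit to 6 arrays (1 lower at an unadjusted p under 0.05), and 16 rose without ligated replicate 1, the lowest ligated liver for this list. The 1 that fell was lost without ligated replicate 1 or sham replicate 1 or 2, and 2 fell without ligated replicate 2. Ccl2, which draws monocytes, read 6.94, 9.04 and 8.49 in ligated livers against 5.07, 5.12 and 5.58 in sham livers (log2 2.90, SE 0.49). Ccl6, another chemokine, read 10.36, 10.26 and 9.91 against 7.30, 7.93 and 7.05 (log2 2.75, SE 0.25), and Cxcl14 rose by 3.03 (SE 0.35). Of 14 neutrophil genes 9 rose (median 1.32), 8 in the fit to 6 arrays. S100a8, a calcium-binding protein stored by neutrophils, read 5.88, 6.27 and 6.39 against 4.19, 3.60 and 3.76 (log2 2.33, SE 0.45, adjusted p = 0.00087), and Chil3, a chitinase-like protein of myeloid cells, read 7.46, 6.54 and 5.86 against 3.27, 3.26 and 3.26 (10.2-fold higher). Of 19 T and NK cell genes 3 fell (median -0.12), 2 in the fit to 6 arrays, with Zap70, a T-cell receptor kinase, at 4.68, 4.92 and 4.46 against 5.37, 5.58 and 5.54. The T and NK list had 5 that fell without ligated replicate 2 and 6 after centring, 2 that rose without ligated replicate 1, and medians of -0.06 and -0.20 without ligated replicates 1 and 2. Of 15 B and plasma cell genes 5 fell and 1 rose (median -0.24), 2 and 1 in the fit to 6 arrays and 3 that fell without sham replicate 1 or 2. Jchain, the joining chain of secreted antibodies, was the one that rose, at 7.31, 5.83 and 6.83 against 5.04, 4.70 and 4.98. The 16 genes of dendritic cells and class II presentation had 2 that rose and 1 that fell, at a median of 0.01, with 1 and 0 in the fit to 6 arrays (2 lower at an unadjusted p under 0.05), and 3 that fell after centring. Its median was 0.37 without ligated replicate 1, -0.22 without ligated replicate 3 and between -0.04 and 0.06 without any other array, and its counts were 1 or 2 that rose and 0 to 2 that fell.

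**Figure D4:**
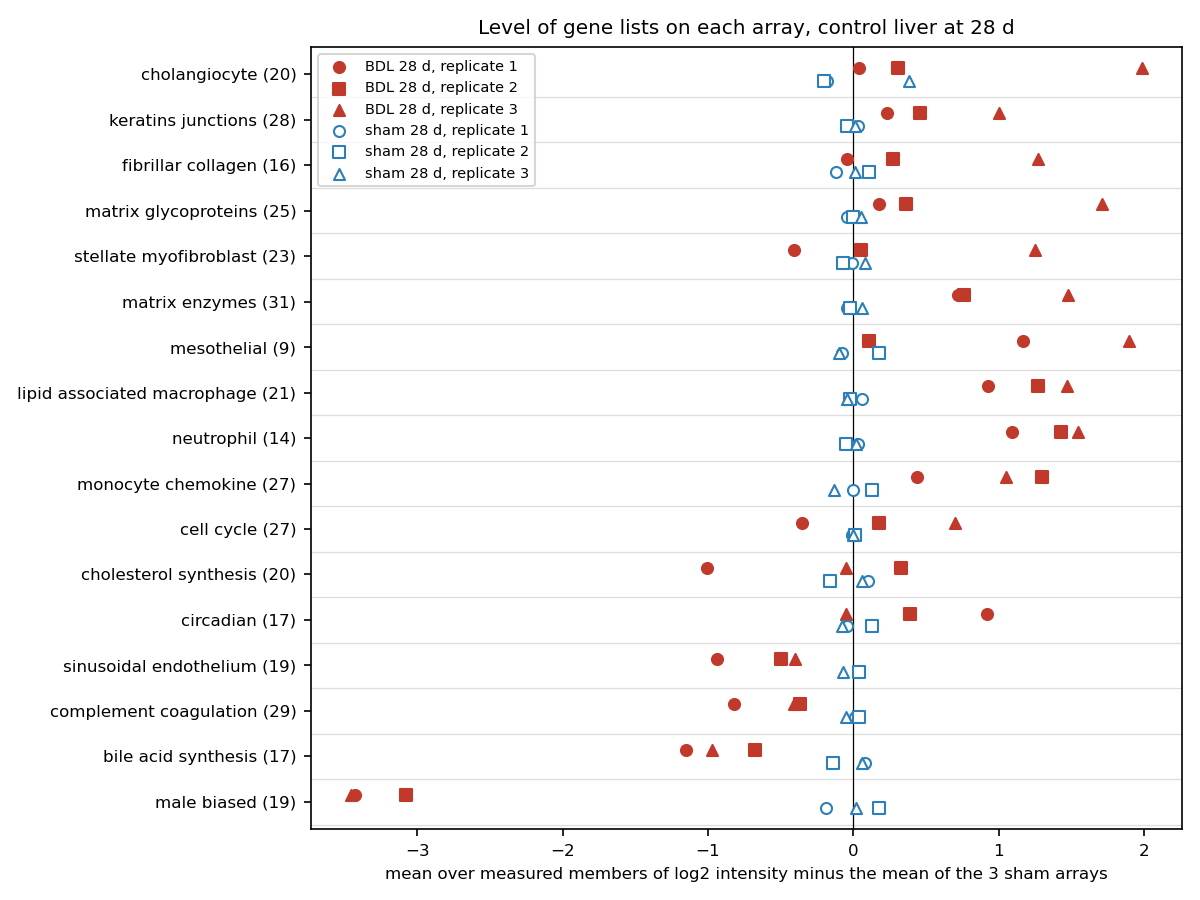
Mean over the measured members of each list of the log2 intensity minus the mean of the 3 sham livers (x axis), for each ligated liver (filled red) and each sham liver (open blue), with the symbol shape marking the replicate. Male-biased, neutrophil and lipid-associated macrophage genes place all 3 ligated livers apart from every sham liver (-3.46 to -3.08, 1.09 to 1.55 and 0.93 to 1.47). Cholangiocyte, stellate, collagen and matrix glycoprotein genes place replicate 3 apart from replicates 1 and 2.

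Bile duct genes differed widely between ligated livers. Averaged over 20 measured cholangiocyte genes, the difference from the sham mean was 0.04, 0.31 and 1.99 in ligated replicates 1, 2 and 3, while the sham livers lay between -0.20 and 0.38. Krt19, a keratin of duct cells, read 5.96, 6.14 and 8.95 in ligated livers and 5.16, 5.0 and 6.64 in sham livers, with overlap, and did not pass (adjusted p = 0.0899). Krt7, its partner, read 6.20, 6.14 and 9.01 against 5.0, 5.31 and 5.48 (log2 1.85, adjusted p = 0.0153). Its call was lost without ligated replicate 3 (0.0784), without sham replicate 1 (0.0566) and in the fit to 6 arrays (0.175; 0.00393 to 0.175 over its alternatives). Bicc1, an RNA-binding protein of duct epithelium, rose in every fit, at 7.42, 7.45 and 9.18 against 6.02, 5.92 and 6.02 (log2 2.03, SE 0.30, adjusted p = 6.29e-05). In all 4 of 20 rose (median 0.72) and 1 in the fit to 6 arrays. Leaving out ligated replicates 1, 2 and 3 gave 9, 7 and 1 that rose, leaving out sham replicates 1 and 2 gave 1 and 2, and the median was 0.10 without ligated replicate 3. Epcam, an adhesion molecule of duct cells, read 5.24, 5.34 and 8.73 against 5.0, 4.93 and 5.78 and did not pass. Duct, mesothelial, stellate and matrix lists were all highest in ligated replicate 3, and the part of this liver's cell content in other results was not tested.

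The junction and keratin list averaged 0.23, 0.46 and 1.0 above sham in ligated replicates 1, 2 and 3. Of 28 measured 13 rose and 3 fell (median 0.51), 6 and 1 in the fit to 6 arrays, and 1 fell without ligated replicate 2. F11r, a junctional adhesion molecule, read 10.68, 10.43 and 10.57 in ligated livers against 9.65, 9.62 and 9.56 in sham livers (log2 0.95, SE 0.16, adjusted p = 0.000227). Lama5, a laminin chain of basement membranes that was counted in this list, read 6.60, 6.72 and 7.68 against 5.46, 5.28 and 5.63 (log2 1.54, SE 0.20). Cldn4, a claudin of tight junctions, rose by 1.58 (SE 0.28), and Jup, which links cadherins and desmosomes to the skeleton, by 0.67 (SE 0.13). The 14 fetal and progenitor genes had 8 that rose (median 1.0), whereas the fit to 6 arrays called 0 (7 at an unadjusted p under 0.05). Without sham replicates 1 and 2, 5 and 4 rose, and the median was 0.53 without ligated replicate 3. Scd2, a desaturase of fetal liver, read 8.19, 8.89 and 10.00 against 7.01, 6.62 and 7.69 (log2 1.92, SE 0.44, adjusted p = 0.00312), with adjusted p = 0.0521 in the fit to 6 arrays (from 0.000221 over its alternatives). Afp, alpha-fetoprotein, read 5.01, 5.01 and 5.70 against 4.60, 4.66 and 4.66 (adjusted p = 0.0296). The Afp call held in 7 of 15 alternatives (0.0206 to 0.178). It was lost without ligated replicate 3 (0.178), without any 1 sham replicate (0.0637 to 0.08), in the fit to 6 arrays (0.11) and under both rescalings and weighted arrays. Of 9 mesothelial genes 4 rose (median 0.83), 1 in the fit to 6 arrays and 8 without ligated replicate 2, whose list mean of 0.11 lay within the sham livers (-0.10 to 0.18) while replicates 1 and 3 stood at 1.17 and 1.90. The mesothelial median was 1.28 without ligated replicate 2 and 0.38 without ligated replicate 3. Msln, mesothelin, read 7.71, 6.19 and 8.77 against 5.46, 6.06 and 5.45, with the call lost in the fit to 6 arrays (adjusted p = 0.0999) and with weighted arrays (0.0926; from 0.000142 over its alternatives).

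Scar collagen was higher on average and uneven. Of 16 measured genes of fibrillar and related collagens 4 rose and 2 fell (median 0.60), while the fit to 6 arrays called 0 (4 higher and 2 lower at an unadjusted p under 0.05). The list mean was -0.04, 0.27 and 1.27 above sham in ligated replicates 1, 2 and 3, and 8 rose without replicate 1 and 2 without replicate 3, where the median was 0.12. The count that fell was 0 or 1 without any 1 of the 6 arrays. Col1a1, a chain of type I collagen, read 6.94, 7.56 and 9.09 in ligated livers against 5.82, 6.22 and 6.29 in sham livers, above all sham values but spread over more than the group difference of 1.75. The Col1a1 call was lost in the fit to 6 arrays (adjusted p = 0.0799, from 0.000276 over its alternatives). Col3a1, type III collagen, read 6.11, 6.95 and 8.30 against 6.26, 6.22 and 6.22, with ligated replicate 1 below every sham liver, and did not pass (adjusted p = 0.109). Of 23 stellate cell and myofibroblast genes 1 rose (1 rose and 1 fell in the fit to 6 arrays). It was Vim, an intermediate filament of mesenchymal cells, at 10.28, 10.58 and 11.45 against 9.39, 9.32 and 9.49 (log2 1.36, SE 0.26). Without ligated replicates 1 and 2, 6 and 2 rose. The list median of 0.37 was 0.73 without ligated replicate 1 and -0.18 without ligated replicate 3, and 1 fell without either of these. Acta2, the actin of activated stellate cells, read 6.66, 7.83 and 10.87 against 7.21, 6.36 and 8.13, with overlap, and did not pass (adjusted p = 0.236).

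Over all arrays, most genes of the list of matrix enzymes, their inhibitors and receptors rose. Of 31 measured 18 rose and 3 fell (median 1.03), 10 and 0 in the fit to 6 arrays (3 lower at an unadjusted p under 0.05), and 1 fell without ligated replicate 1 or without sham replicate 3. Without ligated replicate 3 the median was 0.51 and 13 rose. Mmp14, a membrane-bound metalloproteinase, read 9.16, 9.34 and 9.05 in ligated livers against 8.02, 7.89 and 7.94 in sham livers (log2 1.23, SE 0.17, adjusted p = 2.78e-05). Plaur, the urokinase receptor, read 7.02, 6.78 and 6.47 against 4.97, 4.43 and 5.22 (log2 1.88, SE 0.28), and Plat, tissue plasminogen activator, rose by 1.57 (SE 0.26). Timp1, an inhibitor of metalloproteinases, read 6.47, 7.71 and 9.07 against 4.92, 4.49 and 4.41 (log2 3.15, SE 0.51). Of 20 basement membrane genes 5 rose and 2 fell (median 0.08), 2 and 1 in the fit to 6 arrays and 3 that rose without ligated replicate 3 or sham replicate 1. Leaving out ligated replicate 1 put the basement membrane median at 0.34, ligated replicate 3 at -0.02 and sham replicate 3 at 0.14, and 1 fell without any 1 sham replicate. Nid1, which ties laminin to type IV collagen, read 10.27, 10.34 and 10.51 against 8.00, 7.79 and 7.59 (log2 2.58, SE 0.23, adjusted p = 3.2e-07), while Lama3, a laminin chain, read 4.18, 4.24 and 4.34 against 5.78, 5.74 and 5.56 (log2 -1.44, SE 0.12). Of 25 matrix glycoproteins 8 rose (median 0.44), 3 in the fit to 6 arrays, with a median of 0.82 without ligated replicate 1, 0.67 without ligated replicate 2 and 0.13 without ligated replicate 3, where 1 fell. Thbs1, a thrombospondin that activates latent TGF-beta, read 7.62, 8.91 and 9.58 against 5.51, 4.77 and 5.95 (log2 3.29, SE 0.53).

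Of 21 targets and partners of YAP, the effector of the Hippo pathway, 13 rose (median 0.59), 6 in the fit to 6 arrays and 8 without ligated replicate 3. Wwtr1, which encodes the YAP relative TAZ, read 8.43, 8.17 and 8.22 in ligated livers against 7.21, 7.14 and 7.15 in sham livers (log2 1.11, SE 0.10, adjusted p = 3.78e-07). Ccn2, a matricellular target, read 9.11, 9.88 and 10.58 against 7.25, 7.26 and 7.55 (log2 2.51, SE 0.31), and Tead1, the DNA-binding partner, rose by 1.46 (SE 0.23). Among 25 genes of TGF-beta and BMP signalling 8 rose and 5 fell (median 0.29), 4 and 2 in the fit to 6 arrays. The count that fell was 2 without ligated replicate 1 or sham replicate 1 and 3 without sham replicate 2, and the median was 0.06 without ligated replicate 3. Bmp7, a ligand, read 5.38, 5.29 and 5.16 against 6.41, 6.16 and 6.43 (log2 -1.05, SE 0.14), and Inhbc, an activin subunit made by hepatocytes, fell by 1.25 (SE 0.19). Tgfb1 did not pass, at 7.39, 8.02 and 8.13 in ligated livers and 7.63, 7.34 and 7.31 in sham livers (adjusted p = 0.369). Of 22 Notch and Hedgehog genes 3 rose and 2 fell (median 0.10); 0 rose and 1 fell in the fit to 6 arrays (2 higher at an unadjusted p under 0.05), and 5 and 1 rose without ligated replicates 2 and 3. Leaving out ligated replicate 1 put the Notch and Hedgehog median at 0.17, ligated replicate 3 at 0.01 and sham replicate 2 at 0.06, and 1 fell without ligated replicate 1 or 2 or sham replicate 3. Gas1, a Hedgehog coreceptor, read 6.24, 6.01 and 6.51 against 7.28, 7.23 and 7.41 (log2 -1.06, SE 0.21).

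Of 19 measured genes of sinusoidal endothelium 9 fell (median -0.66), 7 in the fit to 6 arrays. Dnase1l3, a DNase of sinusoidal cells, read 7.80, 8.76 and 8.56 in ligated livers against 10.27, 10.03 and 9.98 in sham livers (log2 -1.72, SE 0.34, adjusted p = 0.000999). Kdr, a VEGF receptor, read 6.93, 7.64 and 7.66 against 8.73, 8.67 and 8.54 (log2 -1.23, SE 0.23), and Ehd3, of endocytic recycling, fell by 1.35 (SE 0.25). Stab2, a scavenger receptor, read 8.32, 9.19 and 8.70 against 9.53, 9.39 and 9.30 and did not pass (adjusted p = 0.0549). Of 22 genes of capillaries, larger vessels and endothelial activation 7 rose and 1 fell (median 0.42), 3 and 1 in the fit to 6 arrays, and without ligated replicate 3 the median was 0.21 and 2 fell. Icam1 and Selp, which bind leukocytes, read 8.51 to 8.90 and 6.78 to 7.38 in ligated livers, against 6.61 to 6.77 and 5.0 to 5.38 in sham livers (log2 1.95, SE 0.32, and 1.94, SE 0.39). Vwf, a marker of larger vessels, read 6.56, 6.72 and 7.62 against 6.40, 6.40 and 6.39 and did not pass.

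Of 23 genes of the oxidative stress response under NRF2 9 rose and 3 fell (median 0.35), 6 and 2 in the fit to 6 arrays, with 6 that fell after centring and a median of 0.22 without ligated replicate 2. Nqo1, a quinone reductase, read 8.91, 8.53 and 7.58 in ligated livers against 5.59, 5.27 and 5.74 in sham livers (log2 2.81, SE 0.40, adjusted p = 4.5e-05). Hmox1, heme oxygenase, read 10.00, 9.77 and 9.43 against 7.71, 7.88 and 7.63 (log2 1.99, SE 0.33), while Me1, malic enzyme, fell by 1.57 (SE 0.27). Of 25 genes of endoplasmic reticulum and integrated stress 9 fell and 2 rose (median -0.38), but 1 and 2 in the fit to 6 arrays. Its median was -0.13 without ligated replicate 1 and -0.10 without sham replicate 2, which stood above the other sham livers for this list (0.40, against -0.28 and -0.12). The members that rose were Atf3, a stress-induced factor, at 7.79, 7.55 and 7.64 against 4.94, 5.83 and 5.74, and Asns, asparagine synthetase, at 9.17, 9.32 and 8.56 against 6.34, 8.04 and 6.97. Of 20 genes of p53 and senescence 6 rose (median 0.47), 3 in the fit to 6 arrays, 2 without sham replicate 1 and 3 without sham replicate 3, with a median of 0.23 and 1 that fell without ligated replicate 3. Btg2, an antiproliferative target of p53, read 10.97, 9.64 and 9.67 against 7.44, 8.13 and 7.77 (log2 2.31, SE 0.40), and Tnfrsf10b, a death receptor, rose by 1.69 (SE 0.26).

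Cell cycle, glucose and cholesterol genes had list medians between -0.28 and 0.18, and circadian genes had one of 0.69. Of 27 cell cycle genes 2 rose and 1 fell, at a median of 0.18, and 1 and 0 in the fit to 6 arrays (1 lower at an unadjusted p under 0.05), with list means of -0.35, 0.18 and 0.70 from sham in ligated replicates 1, 2 and 3. Leaving out ligated replicate 1 put the cell cycle median at 0.47 and ligated replicate 3 at -0.05, and with 1 array left out 0 to 3 rose and 0 to 2 fell, with 0 that rose without sham replicate 1. Mki67, a marker of dividing cells, read 4.61, 5.56 and 6.55 in ligated livers and 5.29, 5.49 and 5.07 in sham livers, with overlap. Of 28 genes of glycolysis, glucose release and their isoforms 5 rose and 6 fell (median 0.04), 3 and 4 in the fit to 6 arrays, and 3 rose without sham replicate 1 or 3. The median was 0.11 without ligated replicate 1 and 0.14 without sham replicate 3. Pygl, liver glycogen phosphorylase, read 9.61, 10.09 and 10.12 against 11.15, 11.06 and 11.25 (log2 -1.22, SE 0.14, adjusted p = 5.34e-06), and Fbp1, of glucose synthesis, fell by 0.43 (SE 0.08). Aldoa, the aldolase of muscle and most non-hepatic tissue, rose by 0.77 (SE 0.14). Of 20 genes of cholesterol synthesis 2 fell (median -0.28), 1 in the fit to 6 arrays. The list mean was -1.01 from sham in ligated replicate 1, 0.33 in replicate 2 and -0.05 in replicate 3, the median was 0.22 without replicate 1 and -0.59 without replicate 2, and 4 fell without replicate 2 or after centring. Without ligated replicate 1 or any 1 sham replicate 1 fell. Of 17 circadian genes 7 rose and 2 fell (median 0.69), 5 and 2 in the fit to 6 arrays, 4 that rose without ligated replicate 1 and 3 without sham replicate 3, and the median was 0.24 without ligated replicate 1. Per1, of the repressor arm of the clock, read 9.95, 8.91 and 8.61 against 7.48, 6.37 and 6.88 (log2 2.25, SE 0.35), while Npas2 and Clock, of its activator arm, read 5.29 to 5.68 and 8.82 to 9.20 in ligated livers, against 7.52 to 8.73 and 9.67 to 9.75 in sham livers. Circadian list means were 0.92, 0.39 and -0.05 from sham in ligated replicates 1, 2 and 3. The hour at which livers were taken is not among the sample details used here, and its part in circadian values was not tested.

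The interaction of ligation and time set the 28 d differences against those at 48 h in control livers. Mice were 12 weeks old at 28 d and 8 weeks old at 48 h, so time after surgery and age cannot be told apart. This holds also for differences between livers ligated for 28 d and for 48 h. The interaction was called for 244 genes, 1.3% of those tested: in 133 the ligation effect was higher at 28 d (0.707%) and in 111 lower (0.59%). The count was 126 in the fit to the 12 arrays of the 4 groups. It was 391 and 612 without ligated 28 d replicates 2 and 3, 138 to 140 without sham 28 d replicate 1 or 2, and 112 to 118 without sham 28 d replicate 3, ligated 48 h replicate 1 or 2, or any sham 48 h replicate. Mapk8 read 7.41 to 7.67 in both control groups at 28 d and 7.37 to 7.49 in control livers ligated for 48 h, against 6.67 to 6.93 on the arrays whose label is control sham 48 h. The difference between livers ligated for 28 d and for 48 h, which uses no sham array, is therefore given beside it. Of the 30 genes with the largest changes 14 were called. These genes were picked by their 28 d difference, which is part of the interaction, so this count is no result about them. Mup3 differed by -0.27 at 48 h (SE 0.52), with an interaction of -4.97 (SE 0.73, adjusted p = 0.00178) and a difference of -4.91 between ligated livers. Ces3a differed by -0.67 at 48 h, with an interaction of -3.79 (SE 0.67) and -3.64 between ligated livers, and Sdr9c7, an orphan short-chain dehydrogenase, by -1.82, with an interaction of -2.50 (SE 0.41) and -2.80. Irak3 differed by 0.96 at 48 h, with an interaction of 2.38 (SE 0.52, adjusted p = 0.0288) and 2.09 between ligated livers. The interaction calls of Irak3, Elovl3, Car3 and Keg1 were each lost under at least 1 alternative, at adjusted p of up to 0.104, 0.078, 0.128 and 0.0631 (from 0.000945, 0.000369, 0.0019 and 0.000294). The lowest values of Elovl3, Car3 and Keg1 are those of the difference between ligated livers, counted among the alternatives though it is no interaction. The fit to the 12 arrays of the 4 groups lost those of Irak3, Car3 and Keg1, and leaving out any of several arrays lost those of Irak3, Elovl3 and Car3. Other genes had differences of a similar size at both times: Slc51b differed by 3.32 (SE 0.71) at 28 d and 3.23 (SE 0.71) at 48 h, Elovl7 by 3.83 (SE 0.41) at 28 d and 3.62 (SE 0.41) at 48 h, and Cib3 by 3.35 (SE 0.83) at 28 d and 4.09 (SE 0.83) at 48 h. Their interactions were not called.

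**Figure D5:**
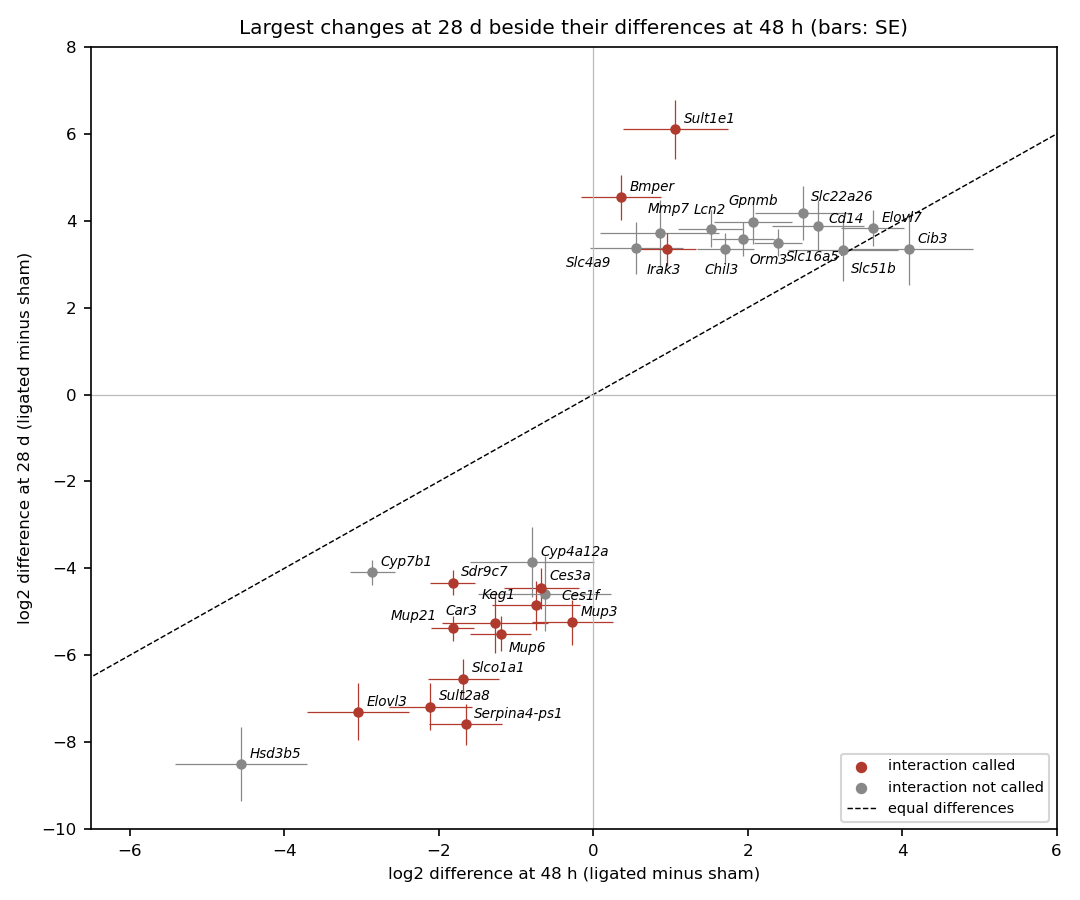
Log2 difference between ligated and sham control livers at 28 d (y axis) against that at 48 h (x axis) for the 30 genes with the largest changes at 28 d, with bars for the SE and a dashed line of equal differences. Red points, 14 in all, are genes whose interaction of ligation and time was called, and Slc51b and Elovl7 lie near the line. The genes were chosen by their 28 d difference, and mice at 28 d and 48 h differed in age.

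The JNK1-/- and JNK1Δhepa livers ligated for 28 d share the sham arrays of the control comparison and had no sham arrays of their own, so their values are set beside those of control livers without a test. Mapk8 read 6.11, 5.18 and 5.61 in JNK1-/- livers and 7.67, 6.90 and 6.97 in the livers labelled JNK1Δhepa, so that replicate 1 of the livers labelled JNK1Δhepa lay within the 7.41 to 7.67 of ligated control livers, against its label. Ranges are given with and without it. Over the 6 mutant arrays Hsd3b5 lay between 3.28 and 4.03 (3.43 to 4.03 over the other 5), against 3.17 to 4.02 in ligated control livers and 11.99 to 12.05 in sham control livers. Slc51b lay between 8.67 and 9.04 in the mutants (8.67 to 9.0 over the other 5), against 8.28 to 8.72 in ligated and 4.50 to 5.61 in sham control livers, and Lcn2, an acute phase protein, between 12.52 and 13.24 (12.78 to 13.24), against 12.71 to 13.20 and 8.13 to 10.09. Sult2a8 lay between 4.84 and 6.66 with or without that array, above the range of ligated controls of 4.13 to 4.60 and below the sham range of 11.47 to 11.64. Mmp7 lay between 5.87 and 8.88 (5.87 to 7.41 over the other 5), and did not reach the 11.27 of ligated control replicate 3.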

How the data were processed

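Total liver RNA was isolated with TRIzol and RNeasy columns, required an integrity number above 8.0, and 100 ng was amplified, per the labels' protocols. The authors deposited log2 intensities summarised per probe set by RMA, per the submitters' processing notes, and its version is not given in the sources used here. No probe intensities or background calls were used, so a value near the lower end of the scale is no measured absence, and the number of arrays limits the precision.

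Of 35556 probe sets, 21218 carried 1 gene symbol in the platform annotation, 1881 several and 12457 none. Of the first, 21185 were linked by gene number to the RefSeq table of GRCm38.p6 and 33 kept the platform symbol. The probe set with the highest mean stood for each of 18820 symbols, of which 1386 had several. No arrays held identical values, and the highest correlation between arrays was 0.9969. Differences were tested with limma 3.58.1 in R 4.3.3, in 1 model of 8 groups over 24 arrays (16 residual degrees of freedom, prior 3.55, median SE 0.129), with Benjamini-Hochberg adjustment over all 18820 symbols. Calls required an adjusted p under 0.05, and rose or fell is written of called genes only. All adjusted p-values are from limma, and all tests were two-sided. The fit was tested on simulated data.

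Genes were named by rule: the 15 with the largest called change without overlap in each direction, up to 4 of smallest p in each of 43 lists, and landmark genes. Predicted genes and T-cell receptor, antibody, olfactory and vomeronasal gene families were left out of the largest changes. Of 966 list genes 878 were measured and the others were not analysed here. The comparison, lists and landmarks were chosen with earlier results of these data known. Same-numbered ligated and sham arrays at 28 d had deviations that correlated at 0.045, 0.043 and 0.139, so the numbers were not taken to pair samples.

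Alternatives, 15 for each result at 28 d, were further quantile normalization, centring, leaving out dim genes, the mean of probe sets, a fit to the arrays compared, array weights, an intensity trend, leaving out 4 arrays whose Mapk8 went against their label, the replicate block, and leaving out each array in turn.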

Additional observations from a re-analysis of the deposited data

Results flagged for a closer look

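The ligation effect differed between 28 d and 48 h, by the interaction in the limma fit, for 36 of the 214 named genes. Over all genes tested the share was 1.3%. Apart from landmarks, named genes were picked by the size or p-value of their 28 d difference. That difference is part of the interaction, so this count is no result about them. Values are the effect at 28 d minus that at 48 h on the log2 scale, and none is explained here. Among the genes with the largest rises these were 5.04 for Sult1e1, 4.18 for Bmper and 2.38 for Irak3. Among those with the largest falls they were -5.94 for Serpina4-ps1, -5.08 for Sult2a8, -4.97 for Mup3, -4.86 for Slco1a1, -4.30 for Mup6 and -4.26 for Elovl3. In the same group they were -4.11 for Keg1, -4.00 for Car3, -3.79 for Ces3a, -3.56 for Mup21 and -2.50 for Sdr9c7.

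Other hepatocyte genes with a lower effect at 28 d were the regulators Cebpa (-0.77), Foxa1 (-1.17) and Foxa2 (-1.11), and the enzymes Cyp2u1 (-1.78), Cyp4f14 (-1.86), Ugt3a1 (-2.02) and Scp2 (-0.66). The secreted proteins C8b (-0.90), F11 (-1.06) and Mbl2 (-1.46) were also lower. Effects higher at 28 d were found for Slc22a27 (2.23), the monooxygenase Fmo2 (2.25), Mt1 (2.53), Mt2 (2.57) and Per1 (2.17). They were found as well for Tgfb3 (2.07), Ccn2 (2.69), Ctss (1.49), C1qc (1.11), Vsig4 (0.98), Ccl6 (2.06) and the costimulator Cd80 (0.82).

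The interaction calls of 19 of the 36 genes held under each alternative tried, and those of 17 were lost under at least 1. The highest adjusted p in limma over the alternatives was 0.104 for Irak3, 0.078 for Elovl3, 0.128 for Car3 and 0.0631 for Keg1. It was 0.612 for Mt1, 0.861 for Mt2, 0.123 for Cebpa, 0.127 for Foxa1, 0.121 for Cyp4f14, 0.0724 for Ugt3a1, 0.109 for Scp2 and 0.11 for F11. It was 0.0645 for Fmo2, 0.118 for Tgfb3, 0.112 for Vsig4, 0.242 for Cd80 and 0.117 for Per1. For Mt1, Mt2, Foxa1 and Cd80 the highest value is that of the difference between ligated livers and not of an interaction. The lowest over these 17 genes lay between 7.5e-05 for Fmo2, also of the difference between ligated livers, and 0.0225 for Cebpa.

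Set against livers ligated for 48 h, with no sham array involved, 5 of the 36 did not pass: Mt1 differed by 0.36, Mt2 by 0.15, Cebpa by -0.33, Foxa1 by -0.36 and Cd80 by 0.25. The Mapk8 level of the arrays labelled control sham 48 h goes against the label, and its part in these interactions was not tested.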

How the results depend on the processing

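At 28 d the count of called genes was 4360, 1765 in the fit to only the arrays compared, and 3354 to 4339 with 1 array left out. With the replicate block it was 4645, and the pairing check is given with the processing. Under the other alternatives it lay within 1.5 times of 4360, with 1660 that rose and 3693 that fell after centring. The interaction was called for 244 genes, for 126 in the fit to only the arrays compared, 1051 with array weights, 250 with the replicate block and 112 to 612 with 1 array left out. The difference between ligated livers at 28 d and 48 h, an alternative chosen after seeing the data, was called for 1962. The cause of these differences was not tested. Genes whose difference turned sign under an alternative were all uncalled. After centring, Cyp7a1, Hnf4a and Cps1 stood at -0.04 and Adgre1 at -0.00. With 1 array left out, Cyp7a1 ranged from -0.88 to 0.70, Adgre1 from -0.22 to 0.54, Mki67 from -0.20 to 0.78, Nr0b2 from -0.56 to 0.11, Clec4f from -0.28 to 0.00, Hnf4a from -0.05 to 0.17, Cps1 from -0.02 to 0.12 and Mapk8 from -0.10 to 0.03. Over the named genes and alternatives at 28 d, 3017 values kept their direction and side of the threshold, 136 lost the call, 37 gained it and 17 turned sign. The 3 arrays per group and the wider spread of ligated livers limit what can be told apart, and saturated or dim probe sets were not identified.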
